A study of Mus musculus with 8 samples.

Results

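The accumbens D1 translatome described here is the ribosome-bound RNA of 4 libraries, accumbens 1 to 4, chosen as the samples whose titles name the accumbens, of 8 libraries in the series. The other 4 libraries came from dorsal striatum and were not compared. Each library is an immunopurification from untreated mice of the bacTRAP line CP73, Drd1-EGFP/Rpl10a, aged to more than 20 months. In such a line the ribosomal protein Rpl10a, fused to EGFP, is made under Drd1 regulatory sequences, so that ribosomes of cells that use these sequences can be pulled down with anti-EGFP antibodies together with the mRNA they carry. All 4 libraries share the transgene, the age, the antibody and the absence of treatment. The labels do not say whether a replicate is 1 mouse or a pool, whether animals were male or female, or which accumbens subregion was taken. An error therefore measures only the spread between these samples, which may be technical. No input RNA was analysed here, so a level says how abundant an mRNA was in the pull-down and not how far it was enriched. The markers fixed for this population were Drd1, Tac1, Pdyn, Wfs1 and Dlk1. Each was at 263 CPM (read counts scaled to a common library total) or more in every library. Without input RNA such levels cannot test the labels, and Penk, the enkephalin precursor of D2 neurons, had a mean of 616 CPM.

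The nucleus accumbens is the ventral part of the striatum and receives dopamine from the ventral tegmental area. Its principal cells are GABAergic spiny projection neurons, and those with the D1 receptor, encoded by Drd1, send axons to the midbrain and ventral pallidum and are known for their part in reward and motivation. The D1 receptor acts through the G protein Golf, whose alpha subunit is encoded by Gnal, to raise cyclic AMP and activate protein kinase A; phosphodiesterases break cyclic AMP down, and the phosphoprotein DARPP-32, encoded by Ppp1r1b, is a main target of the kinase. D1 neurons are also known for the peptides dynorphin, from Pdyn, and substance P, from Tac1, whereas the neighbouring D2 neurons make enkephalin from Penk. Wfs1, an endoplasmic reticulum membrane protein, and Dlk1, an imprinted Notch-family ligand, are markers of ventral striatum.

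The 5 markers carry the description of this cell population, so the 250 bases before the RefSeq start of each gene (GRCm38.p6) are printed here 5′ to 3′ on the gene's own strand. Capitals mark matches to any of 3 short motifs, searched on both strands. The TATA box was searched as TATAAA. The GC box, where Sp1-family factors can bind, was searched as GGGCGG, which reads CCGCCC where it lies on the other strand. The core of the cyclic AMP response element was searched as TGACG, which then reads CGTCA. No match overlapped another. The windows lie at chr13:54055659-54055908 on the minus strand for Drd1, chr6:7554811-7555060 on the plus strand for Tac1, chr2:129699939-129700188 on the minus strand for Pdyn, chr5:36988983-36989232 on the minus strand for Wfs1 and chr12:109452573-109452822 on the plus strand for Dlk1.
Drd1: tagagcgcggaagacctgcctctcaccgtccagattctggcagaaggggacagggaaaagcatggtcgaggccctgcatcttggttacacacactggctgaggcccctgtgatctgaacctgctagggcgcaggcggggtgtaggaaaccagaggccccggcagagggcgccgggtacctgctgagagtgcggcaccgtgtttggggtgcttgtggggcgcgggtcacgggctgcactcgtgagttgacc
Tac1: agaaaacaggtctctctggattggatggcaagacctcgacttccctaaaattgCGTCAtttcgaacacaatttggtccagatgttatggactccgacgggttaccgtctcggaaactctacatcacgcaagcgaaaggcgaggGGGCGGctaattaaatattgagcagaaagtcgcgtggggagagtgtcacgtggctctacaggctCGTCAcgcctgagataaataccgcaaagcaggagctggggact
Pdyn: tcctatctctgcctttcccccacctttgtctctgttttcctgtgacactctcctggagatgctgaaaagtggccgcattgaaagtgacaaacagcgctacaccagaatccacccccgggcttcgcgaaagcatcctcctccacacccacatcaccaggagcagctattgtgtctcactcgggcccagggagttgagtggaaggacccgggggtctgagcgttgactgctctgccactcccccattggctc
Wfs1: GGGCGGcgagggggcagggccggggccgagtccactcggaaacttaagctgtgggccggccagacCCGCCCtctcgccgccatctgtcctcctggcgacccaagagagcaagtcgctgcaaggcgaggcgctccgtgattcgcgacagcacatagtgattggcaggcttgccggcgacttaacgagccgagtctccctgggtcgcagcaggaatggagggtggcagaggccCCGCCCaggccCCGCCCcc
Dlk1: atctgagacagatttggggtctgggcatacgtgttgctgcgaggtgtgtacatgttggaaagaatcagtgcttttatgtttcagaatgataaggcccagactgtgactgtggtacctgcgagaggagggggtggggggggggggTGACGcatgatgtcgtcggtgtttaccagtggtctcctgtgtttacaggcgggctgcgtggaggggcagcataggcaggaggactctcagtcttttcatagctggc
Of all 32851 promoter windows of this length in the RefSeq table, 12.4% held the TATA box, 32.7% the GC box and 17.8% the response element core on either strand. The Tac1 window held 1 GC box and 2 response element cores, the Wfs1 window 4 GC boxes and the Dlk1 window 1 such core. None of the letters searched occurred in the Drd1 and Pdyn windows, and no TATA box letters occurred in any of the 5. A match is a description of the letters and not a binding site. For Drd1 and Pdyn, which have 2 promoters in the table, the one nearest to the gene's 5′ end in GENCODE M21 was taken. In GENCODE M21 that end lies inside the window for Drd1 (54055705), Tac1 (7554879) and Wfs1 (36989205), so part of each window is within the gene. That part holds the Wfs1 GC boxes at -185, -19 and -8, counted from the RefSeq start. In Tac1 it holds the GC box at -107 and the core at -43.

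The libraries held 10831937, 11932536, 12639641 and 11557214 read counts assigned to genes, and 14032 to 16053 genes with at least 1 count. A count corresponds to 0.0791 to 0.0923 CPM, and 3 counts, used below as the limit for a gene at 0, to 0.237 to 0.277 CPM. Accumbens 2 had the fewest detected genes and the lowest rank correlation with the others (median Spearman's rho across genes 0.911, against 0.942 for accumbens 1), computed across genes, which are not independent replicates. Accumbens 1 held 17139.6 CPM of the unannotated transcript AK140265, against 2347 to 3799 CPM in the others. The part of these differences in the results below was not tested.

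Among the 5 markers Wfs1 was the most abundant and Tac1 the least. To compare genes of different length, levels were also expressed as CPM per kilobase of exon (CPM per kb), with exon lengths from GENCODE M21, since the annotation behind the counts is not given in the sources used here. On this scale Wfs1 stood at 393 ± 45.9 CPM per kb (SD, n = 4, as for all such values below), Pdyn at 150.1 ± 12.8 CPM per kb, Dlk1 at 126 ± 7.003 CPM per kb, Drd1 at 121 ± 21.8 CPM per kb and Tac1 at 91.5 ± 18.2 CPM per kb. The value of Wfs1 ranked 31 among the 23898 genes with a length, those of Pdyn, Dlk1 and Drd1 ranked 129, 162 and 169, and that of Tac1 ranked 270. With the length of the longest transcript in place of all exons Tac1 reached 158 CPM per kb, above Dlk1 at 153 and Drd1 at 123.2, so the place of Tac1 in this order depends on the transcript form assumed; the rank of Drd1 was then 267.

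Drd1, the receptor gene whose regulatory sequences drive the transgene (chromosome 13, 54051183 to 54055705, GRCm38, minus strand), had 455, 545, 364 and 399 CPM in accumbens 1, 2, 3 and 4, the order used for every set of 4 values below. The highest value was in accumbens 2 and the lowest in accumbens 3, 1.499 times apart. Whether transgene-derived transcripts add to the counts of Drd1 was not tested. Tac1, the precursor of substance P (chromosome 6, 7554879 to 7565834, plus strand), had 397, 270.1, 263 and 314 CPM. Accumbens 1 was the highest here, and accumbens 2 and 3 were the lowest and close to each other. Pdyn, the dynorphin precursor (chromosome 2, 129686565 to 129699844, minus strand), had 486, 425, 425 and 398 CPM. Its coefficient of variation (CV, the SD as a percent of the mean) was 8.54%, smaller than those of Drd1 (18.0%) and Tac1 (19.8%).

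Wfs1 (chromosome 5, 36966104 to 36989205, minus strand) had 1629, 1499, 1587 and 1241 CPM, and accumbens 4 was the lowest. Dlk1 (chromosome 12, 109452823 to 109463336, plus strand) had 702, 746, 742 and 662 CPM, with the smallest CV of the 5 markers at 5.56%. Counting error alone would give a CV of 0.762% for Wfs1 and 1.41% for Drd1, and for Dlk1 of 1.10%, in each case below the CV observed. Per kb, the lowest library of Wfs1 (328 CPM per kb) was above the highest library of Pdyn (168 CPM per kb). The range of Drd1, with 125, 150.3, 100.2 and 109.9 CPM per kb, overlapped those of Pdyn (138 to 168), Dlk1 (117 to 132) and Tac1 (77.4 to 117). Its order against Pdyn and Dlk1 changed from library to library. Drd1 was above Tac1, with 116.9, 79.5, 77.4 and 92.4 CPM per kb, in each library. By the longest transcript the mean of Tac1 was the higher. Rpl10a, whose protein is the tag carrier, had 211, 216, 228 and 179 CPM. Reads from the endogenous gene and from the transgene cannot be told apart in Rpl10a, and it shares an exon with a gene on the opposite strand.

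**Figure D1:**
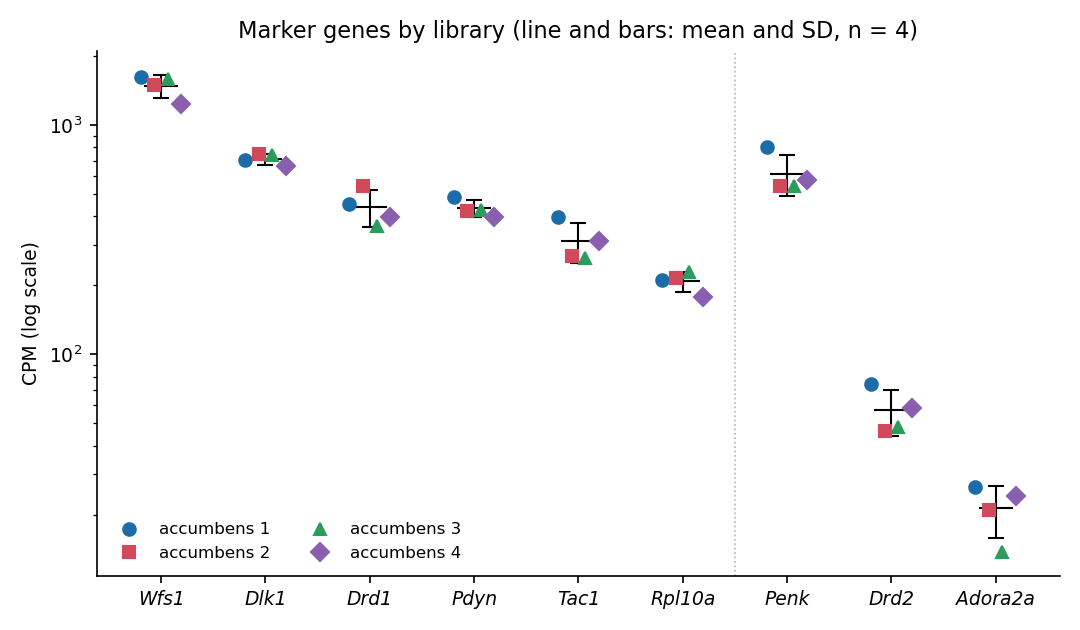
Level in CPM (log axis, not per kb) of Drd1, Tac1, Pdyn, Wfs1, Dlk1 and Rpl10a, and, right of the dotted line, of Penk, Drd2 and Adora2a. Each point is 1 of the 4 accumbens libraries and each bar the mean with its SD. Wfs1 lies apart above the other genes, and the points of Drd1 overlap those of Pdyn and of Tac1.

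Genes closest to each marker in CPM per kb, among those averaging at least 50 CPM, differed from marker to marker. The 3 nearest to Drd1 were Cnksr2 (122 ± 9.39 CPM per kb), Gprasp1 (121 ± 14.5 CPM per kb) and Zfp365 (121 ± 20.6 CPM per kb). Those nearest to Wfs1 were Gad2, a GABA-synthesising enzyme, at 397 ± 41.1 CPM per kb, Bex2 at 410.0 ± 40.0 CPM per kb and Penk at 377 ± 76.6 CPM per kb. Tac1 stood beside Kif3a (91.1 ± 9.00 CPM per kb), Rasgef1a and Tspyl2, Pdyn beside Camk2b (149.9 ± 9.48 CPM per kb), Hsph1 and Trim44, and Dlk1 beside Ik (126 ± 0.556 CPM per kb), Mapre2 and Ddx5. The likeness is of the mean level over 4 libraries alone.

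Of 10 genes listed as markers of D1 direct-pathway neurons, 9 were at 10 CPM or more in all 4 libraries and 5 at 100 CPM or more; of 20421 protein-coding genes in the tables, 33.6% and 8.40% were. The list's members were chosen as markers, so its counts describe the list. The same shares of protein-coding genes are the measure for each such count of a list below. Beside Drd1, Tac1 and Pdyn, the list's higher members were Eya1, a transcriptional co-activator, with 586, 579.8, 556 and 713 CPM. Accumbens 4 was the highest of these. Sfxn1, a mitochondrial serine transporter, had 207, 258, 211 and 253 CPM, with accumbens 2 and 4 above accumbens 1 and 3. Chrm4, the M4 muscarinic receptor that acts against D1 signalling through Gi, had 52.6, 34.0, 44.7 and 43.3 CPM, and accumbens 2 was the lowest. Isl1, a transcription factor of developing D1 neurons, stood at 24.9 ± 10.8 CPM and Ebf1, another, at 42.9 ± 11.5 CPM. Mc4r, a melanocortin receptor, had 0.831, 1.84, 0 and 0.0865 CPM and was the only member of this list under 1 CPM on average. The summed level of the list was 2305, 2209, 1983 and 2231 CPM, lowest in accumbens 3.

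Among 18 genes listed for the accumbens, 12 were at 10 CPM or more and 5 at 100 CPM or more in all 4 libraries. The highest after Wfs1 was Peg10, an imprinted gene derived from a retrotransposon, with 1199, 1339, 1494 and 1029 CPM. Accumbens 3 was the highest and accumbens 4 the lowest of these. After Dlk1, Hap1, a huntingtin-associated protein, had 207, 205, 221 and 235.4 CPM. Nnat, an imprinted membrane protein, had 159.9, 267, 227 and 156 CPM, with accumbens 2 and 3 above accumbens 1 and 4. Cartpt, the precursor of the CART peptide, had 53.0, 33.5, 48.3 and 31.4 CPM, with accumbens 1 and 3 above accumbens 2 and 4. Crym, the thyroid hormone-binding crystallin mu, had 81.7, 77.9, 106 and 88.5 CPM. Col11a1, Tnnt1 and Rxfp1 lay under 10 CPM in every library, with 1.29 to 7.79 CPM, 0.168 to 7.02 CPM and 0 to 2.01 CPM. Oprd1, the delta opioid receptor, had 9.97, 35.5, 7.04 and 7.87 CPM and was highest in accumbens 2. Drd3, the D3 dopamine receptor known from the ventral striatum, had 20.9, 9.55, 23.1 and 20.3 CPM, and accumbens 2 was the lowest. The list summed to 4304, 4506, 4715 and 3691 CPM, lowest in accumbens 4, and 8 of its 18 members had their lowest value there. Of 17934 genes with a count in any of the 4 libraries, 15.4% had theirs in accumbens 4 alone. Among genes averaging at least 10 CPM the share was 20.8%.

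All 29 of the genes listed for spiny projection neurons in general were at 10 CPM or more in the 4 libraries and 23 were at 100 CPM or more, with a sum of 18027, 19286, 17796 and 18594 CPM. Arpp21, a cyclic AMP-regulated phosphoprotein, had 2842, 2912, 2481 and 2942 CPM. Gnal had 2395, 2730.3, 2522 and 2571 CPM, lowest in accumbens 1. Gad2 had 1987, 2548, 2389 and 2407 CPM, again lowest in accumbens 1. Pde10a, the dual cyclic nucleotide phosphodiesterase of these neurons, had 1568, 1968, 1465 and 1709 CPM and was highest in accumbens 2. The CVs of Arpp21, Gnal, Gad2 and Pde10a were 7.62%, 5.43%, 10.3% and 12.99%. Ppp1r1b had 1304, 1094, 1321 and 1115 CPM and per kb was the highest of the list at 413 ± 41.1 CPM per kb, next to Gad2 at 397 ± 41.1 CPM per kb; the 4 values of the 2 genes overlap. The lowest of the list were Actn2 at 31.2 ± 11.6 CPM and Rasgrp2, an exchange factor for Rap, at 29.3 ± 5.67 CPM.

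The most counted gene was Rn45s, the precursor of ribosomal RNA, with 6.11% ± 0.464 of gene counts (SD, n = 4); 91.0% ± 0.707 fell in protein-coding genes, 0.884% ± 0.193 in long noncoding RNA genes and 1.97% ± 0.840 in names other than Rn45s with no match in the annotation, the last with AK140265. The 100 most counted genes held 24.7 ± 0.612% of counts and the 1000 most counted 59.7 ± 0.504%. Between 702 and 729 protein-coding genes held 50 percent of the protein-coding counts of a library. In all 4 libraries, 10768 genes reached 1 CPM, 7006 reached 10 CPM, 1743 reached 100 CPM and 78 reached 1000 CPM.

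Snap25, a SNARE protein of synaptic vesicle fusion, led the protein-coding genes by mean CPM and had 10371, 7663, 8950.2 and 8455 CPM. Accumbens 1 was the highest in Snap25. Ndrg4, a gene of the NDRG family, had 6009, 5922, 5463 and 5448 CPM, a narrow range. Map1b, a microtubule-associated protein, had 4631, 4999, 5207 and 4996 CPM, lowest in accumbens 1. Calm2, which encodes calmodulin, followed at 4881 ± 627 CPM, beside Ywhaz, a 14-3-3 protein, at 4859 ± 243 CPM. Lars2, the mitochondrial leucyl-tRNA synthetase, stood at 4626 ± 370.4 CPM, Arf3, a small GTPase, at 3526 ± 146 CPM, and Camk2a, the alpha subunit of calcium/calmodulin kinase II, at 3460.4 ± 634 CPM. Prkcb, Fkbp1a, Gapdh, Arpp21, Gnal, Gad2, Ppp3ca and Cplx2 were also among the 20 highest, with means of 2272 to 3432 CPM, together with Rn45s, AK140265 and Malat1. Malat1, a nuclear noncoding RNA, had 3922, 2635, 2745 and 6669.9 CPM. Accumbens 4 was the highest in Malat1 and accumbens 2 and 3 were the lowest.

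Per kb of exon the order was another one. Calm2 led with 3327 ± 428 CPM per kb, above every library of Snap25, which had 1305 ± 168 CPM per kb. Ywhaz had 1180.0 ± 59.0 CPM per kb, and its libraries overlapped those of Snap25. Ndrg4, Fkbp1a, Ywhae, Arf3 and Gapdh followed, between 723 and 1167 CPM per kb. Mir6236, a very short microRNA entry, reached 2334 ± 339 CPM per kb from only 287 ± 41.8 CPM, and its value per kb rests on few bases. Among the 20 highest were also Ctxn1, Atp1b1 (a sodium pump subunit), Actb, Ncdn, Vsnl1, Ldhb and Hpca, the last a neuronal calcium sensor at 464 ± 44.8 CPM per kb. Vsnl1, another calcium sensor, had 1103, 806, 1331 and 1041 CPM, a CV of 20.1%.

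Composition by gene class, sorted from gene names, is given as percent of gene counts with its SD over 4 libraries. Synaptic vesicle and SNARE genes held 2.62% ± 0.129 in 78 genes. Small GTPases and their exchange factors held 2.54% ± 0.05001, the second-messenger kinases A, C and CaMK 2.03% ± 0.0896 and microtubule genes 1.52% ± 0.0417. The first 2 classes overlapped between libraries and their order is within the spread. Protein phosphatases held 1.47% ± 0.0353, solute carriers 1.11% ± 0.0548, and G proteins with their RGS regulators 1.08% ± 0.0127. Cyclases and phosphodiesterases, the enzymes that make and break cyclic nucleotides, held 0.687% ± 0.0442. Potassium channels held 0.530% ± 0.0329 and sodium and calcium channels 0.528% ± 0.0199. Glutamate receptors held 0.360% ± 0.0234, and GABA and glycine receptors 0.260% ± 0.0218.

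Classes of general cell function held shares of the same order. Nuclear-encoded respiratory chain and ATP synthase genes held 0.841% ± 0.0452 of gene counts, translation factors 0.736% ± 0.0113 and proteins of the cytosolic ribosome 0.482% ± 0.0421. Aminoacyl-tRNA synthetases held 0.594% ± 0.0459, of which Lars2 alone made up 77.9%. Of the respiratory chain, cytosolic ribosomal, proteasome and mitochondrial ribosomal classes, accumbens 2 had the lowest share each time; the mitochondrial ribosomal genes held 0.151% ± 0.0116. Olfactory and vomeronasal receptor genes, not known to be made by these neurons, held 0.00186% ± 0.000759. A class sum is over genes of unequal length and number, so classes were not compared per gene.

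**Figure D2:**
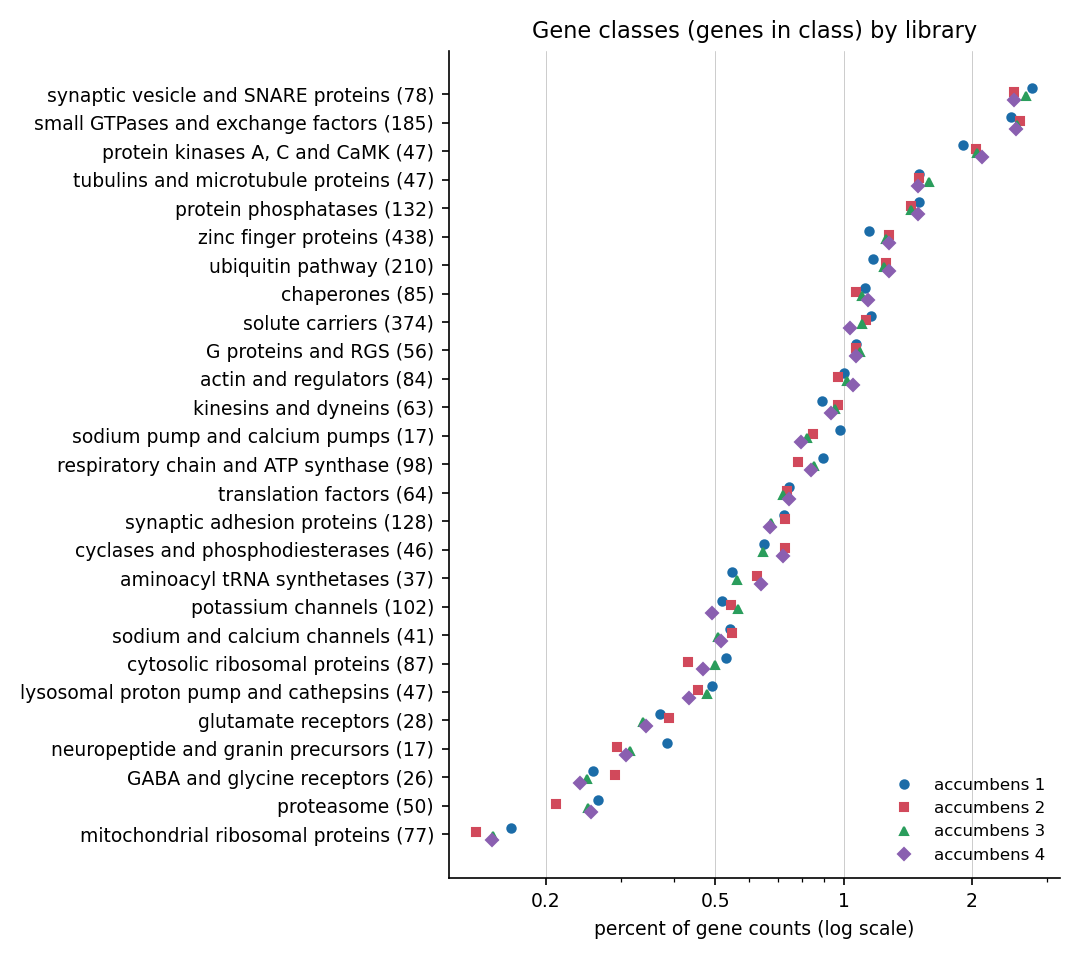
Percent of gene counts (log axis) in named gene classes, each point 1 of the 4 accumbens libraries, with the number of genes of the class in brackets. Synaptic vesicle and small GTPase genes are the highest, at about the same level, and proteasome and mitochondrial ribosomal genes the lowest of those drawn.

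Signalling genes were then set side by side within families, as percent of the family's summed CPM per kb. In the dopamine receptor family Drd1 made up 74.9, 86.3, 75.5 and 75.9% of the sum in accumbens 1 to 4 and was the highest member in each library. Accumbens 2 was the highest of the 4. Drd2, the receptor of the other projection neuron class, made up 14.5% ± 3.02 and Drd3 7.21% ± 2.93; Drd4 and Drd5 were at 0.00408% and 0.0751%. Drd2 had 74.6, 46.3, 48.3 and 58.7 CPM, and the ratio of Drd1 to Drd2 per kb was 4.28, 8.26, 5.29 and 4.77. Accumbens 2 was the highest in this ratio, with Drd1 at its highest and Drd2 at its lowest. In bulk samples such as these, RNA from fewer cells of a type and less RNA per cell cannot be told apart, so the Drd2 level gives no count of D2 cells in the pull-down.

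Of the 2 stimulatory alpha subunits, Gnal made up 85.0% ± 1.62 and Gnas 14.96% ± 1.62 of their sum; both share exons with genes on the opposite strand. Gng7, the gamma subunit known to pair with Golf in striatum, made up 48.4% ± 3.20 of the gamma family and Gng3 42.2% ± 3.43. Adcy5, the main striatal adenylyl cyclase, made up 52.9% ± 5.88 and Adcy9 32.9% ± 5.87 of the cyclases, while Adcy2 and Adcy1 made up 6.88% and 4.26%. Among other alpha subunits Gnai1, of the Gi class, led with 40.7% ± 1.46 by union exons, but Gnao1 led with 39.4% by the longest transcript. Of 18 phosphodiesterases, Pde10a made up 22.9% ± 2.73, Pde1b 17.6% ± 0.974 and Pde1a 17.5% ± 1.30. The RGS proteins, which speed the shutting off of G proteins, were led by Rgs2 (27.2% ± 4.70) and Rgs4 (26.1% ± 0.904), whose means differ by less than their spread, with Rgs8 (14.8% ± 2.41) and the striatal Rgs9 (9.43% ± 1.24) after them.

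Downstream of cyclic AMP, 12 of 12 listed genes of protein kinase A and its targets were at 10 CPM or more in all 4 libraries. Ppp1r1b made up 31.8% ± 3.03 of their sum per kb, Prkar1a, a regulatory subunit, 13.6% ± 1.35, and Arpp21 12.3% ± 0.943; the share of Arpp21 was 24.3% by the longest transcript. In CaM kinase II, Camk2a made up 73.3% ± 2.68 and Camk2b 24.0% ± 2.35. The calcium-dependent phosphatase calcineurin was led by its regulatory subunit Ppp3r1 (57.8% ± 1.39) over the catalytic Ppp3ca (38.8% ± 1.75), and the order turns with the longest transcript (42.6% and 53.1%).

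Acetylcholine, adenosine, serotonin and opioids also act on these neurons. Of the muscarinic receptors, Chrm4 made up 52.6% ± 3.16 and Chrm1 40.6% ± 3.48, and the lowest share of Chrm4 lay above the highest share of Chrm1; Chrm1 shares an exon with a gene on the opposite strand. Adora1, the A1 adenosine receptor, made up 78.7% ± 6.70 and Adora2a, the adenosine receptor of D2 neurons, 21.1% ± 6.70. Htr2c, the 2C serotonin receptor, made up 35.6% ± 2.68 of the 13 serotonin receptors listed, ahead of Htr1d with 20.2% ± 3.05 and Htr5a with 12.9% ± 2.79. Of the opioid receptors, Oprk1, whose ligand is dynorphin, had 55.4, 48.6, 31.3 and 72.9 CPM and was highest in accumbens 4. Oprm1, the mu receptor, had 31.7, 26.9, 36.1 and 44.3 CPM, also highest there. Oprl1, the nociceptin receptor, had 16.1, 3.77, 12.3 and 15.9 CPM, lowest in accumbens 2.

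**Figure D3:**
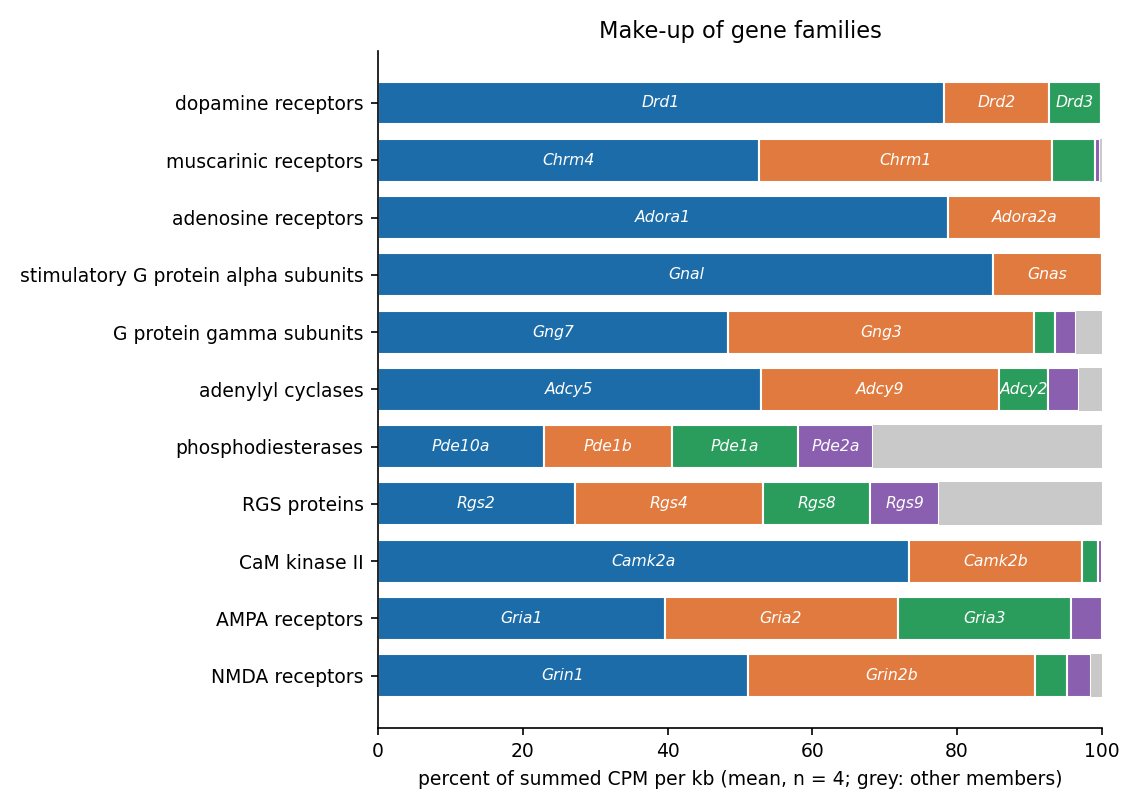
Mean percent of the summed CPM per kb of gene families held by each of up to 4 leading members (coloured, labelled where wide) and by all other members together (grey), n = 4 accumbens libraries. Drd1, Adora1, Gnal and Camk2a each take the greater share of their family.

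The enkephalin precursor exceeded the dynorphin precursor in each of the 4 libraries. Penk had 802, 541, 544 and 577 CPM and stood at 377 ± 76.6 CPM per kb, and it shares an exon with a gene on the opposite strand. Pdyn over Penk per kb was 0.405 ± 0.0485 and Tac1 over Penk 0.243 ± 0.0127. Of the opioid precursors and receptors listed, Penk and Pdyn made up 68.9% ± 2.69 and 27.8% ± 2.34. Among the 20 other listed precursors, the granins Scg2 and Chgb made up 36.9% ± 3.49 and 21.2% ± 2.21, and Tac1 9.80% ± 1.28. Sst, the interneuron peptide somatostatin, had 58.2, 41.4, 57.2 and 31.8 CPM, lowest in accumbens 4. Cck, cholecystokinin, had 51.3, 103, 40.2 and 15.7 CPM. It was lowest in accumbens 4 and highest in accumbens 2, 6.58 times apart. Npy, neuropeptide Y, was at 3.69, 0.0838, 8.07 and 0.346 CPM. Of the genes listed for prohormone processing, carboxypeptidase E (Cpe) made up 48.2% ± 4.97, ahead of Pcsk1n, Scg5 and Pcsk2. By the longest transcript Pcsk2 came next after Cpe, with 16.1% against 15.5% for Pcsk1n and 13.5% for Scg5.

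Spiny neurons receive glutamate from cortex, amygdala and hippocampus, and GABA from each other and from interneurons. All 4 AMPA receptor genes were at 10 CPM or more in every library, and Gria1 (39.6% ± 3.71), Gria2 (32.2% ± 1.58) and Gria3 (23.9% ± 1.42) were the larger parts of their sum; Gria2 led by the longest transcript (34.1%). In the NMDA receptors, Grin1, the obligatory subunit, made up 51.1% ± 2.69, Grin2b 39.7% ± 2.75 and Grin2a 4.35% ± 1.30. Grm3 (37.8% ± 3.67) and Grm5 (32.6% ± 2.11) were the higher metabotropic receptors, and Grm5 led by the longest transcript. Of the GABA-A receptor genes, Gabra5 made up 29.7% ± 5.89 and Gabra4 25.3% ± 4.58 of the alpha family. Gabrd, a subunit of extrasynaptic receptors, made up 46.8% ± 5.07 of the gamma and delta genes, and Gabrg3 23.1% ± 10.3.

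Voltage-gated and inwardly rectifying channels set the firing of spiny neurons. The sodium channel family was led by 2 beta subunits, Scn2b (33.9% ± 3.01) and Scn4b, which shapes resurgent current (20.4% ± 2.11); Scn4b had 372, 298, 293 and 294 CPM. The pore-forming Scn2a1 and Scn8a made up 12.03% ± 0.450 and 9.26% ± 1.06. Cacna1e, of R-type calcium channels, made up 42.7% ± 2.53 of the alpha 1 genes and Cacna1b, of N-type, 18.0% ± 3.08. Of the A-type potassium channel genes, Kcnip3 and Kcnip2, which encode accessory KChIPs, made up 31.6% ± 2.59 and 24.3% ± 2.58 and the pore-forming Kcnd2 14.8% ± 0.842. Kcnj4 (33.2% ± 3.83) and Kcnj2 (32.1% ± 1.35), the inward rectifiers that hold the resting potential down, had overlapping shares.

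In release genes, Snap25 made up 46.2% ± 3.11 of the SNARE set, Cplx2 16.4% ± 1.15 and Vamp2 15.6% ± 1.61. Syt1 and Syt5 led the synaptotagmins, the calcium sensors of release, with 24.8% ± 1.46 and 22.5% ± 1.54. On the receiving side, 14 of 15 scaffold genes were at 10 CPM or more in all 4 libraries, and Dlg2 made up 15.5% ± 0.767 of their sum. Nrxn3 made up 35.2% ± 1.74 of the neurexins and neuroligins, which join the 2 sides of a synapse, and Nlgn2, of inhibitory synapses, 24.4% ± 2.45. Over the 36 families examined, 27 kept the same leading member with the longest transcript, and in 30 the leading member was the highest in all 4 libraries.

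Of 16 transcription factors of projection neurons, 13 were at 10 CPM or more in all 4 libraries. Foxp1, a forkhead factor of the striatum, had 858, 835, 785 and 929 CPM. Meis2, a homeobox factor, had 675, 819.8, 662 and 736 CPM. Bcl11b, which encodes CTIP2, had 573, 642, 576 and 669.8 CPM. In each of the 3 genes the highest library was at most 1.24 times the lowest. The shares of Foxp1, Meis2 and Bcl11b per kb were 15.4% ± 0.712, 14.98% ± 1.63 and 18.9% ± 1.42, and Meis2 led by the longest transcript. Immediate early genes, which neurons turn on rapidly when they are active, were led by Egr1 with 1039, 804, 728 and 893 CPM. Egr3 had 663, 478, 468 and 486 CPM. Accumbens 1 was the highest in both, as in 14 of the 17 listed genes with a count; over all genes with a count, 26.5% were highest in accumbens 1. Egr2 had 83.2, 27.4, 20.4 and 30.5 CPM, more than 2-fold above each other library in accumbens 1. Nr4a1, an orphan nuclear receptor, had 155, 65.5, 47.1 and 114 CPM. Fos, the best-known gene of this group, had 10.3, 5.28, 3.88 and 27.6 CPM and was highest in accumbens 4. 

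All animals were old, and no young animals were analysed here, so the levels of genes linked to cell age are given without a comparison. Cdkn1a, an inhibitor of cyclin-dependent kinases, had 36.1, 86.3, 47.5 and 51.0 CPM, highest in accumbens 2. Cdkn2d, another, had 26.6, 31.2, 32.4 and 36.9 CPM. Trp53, the tumour suppressor, had 31.9, 29.9, 43.0 and 30.0 CPM. The genes known from senescent cells, Cdkn2a, Cdkn2b, Il6 and Gdf15, had no count in any of the 4 libraries, which allows up to 0.237 to 0.277 CPM in a library, from counting error alone. Imprinted genes, expressed from 1 parental copy, reached 10 CPM in 19 of 30 genes in all 4 libraries, against 21.5% of all genes. Peg10 and Dlk1 made up 21.6% ± 1.79 and 14.4% ± 0.474 of the family per kb and Nnat 12.5% ± 2.37. Peg3, a zinc finger gene, had 872, 844, 1005 and 939.9 CPM. Meg3, a noncoding RNA of the Dlk1 locus, had 493, 492, 420.3 and 378 CPM, with accumbens 1 and 2 above accumbens 3 and 4. H19 had no count, and 14 of the 29 detected imprinted genes were lowest in accumbens 4. Of all genes with a count 15.4% were, and of genes averaging at least 10 CPM 20.8%. All 17 listed neurodegeneration genes were at 10 CPM or more. App, the amyloid precursor, had 759, 597, 590.1 and 633 CPM. Sod1, superoxide dismutase, had 471, 368, 461 and 392 CPM. Htt, huntingtin, had 128, 167, 157 and 135 CPM, lowest in accumbens 1.

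Markers of other cells of the tissue differed widely in level from list to list. The D2 list (6 of 10 at 10 CPM or more in all 4) summed to 1201, 892, 922 and 947 CPM, of which Penk held most; Adora2a had 26.3, 21.03, 13.8 and 24.1 CPM, lowest in accumbens 3. Gpr6, an orphan receptor, had 10.99, 7.21, 5.62 and 9.60 CPM. In 7 of the 10 D2 genes accumbens 1 was the highest, against 26.5% of all genes with a count. The cholinergic interneuron list summed to 10.3, 11.6, 27.8 and 14.8 CPM, and Slc18a3 had no count; Chat had 0.185, 0, 0.158 and 3.89 CPM. In the GABA interneuron list Sst, Cck and Nos1 reached 10 CPM in all 4, and Pvalb had 0, 0, 0.396 and 0.0865 CPM. The cortical excitatory list summed to 90.2, 99.0, 93.4 and 25.1 CPM, and accumbens 4 was the lowest. Slc17a7, a vesicular glutamate transporter, had 61.6, 35.8, 54.4 and 14.8 CPM and Neurod6 4.25, 3.86, 3.80 and 0 CPM. Emx1 had no count. The list of eccentric projection neurons had 3 of 10 at 10 CPM or more, including Otof and Tshz1, and striosome and matrix lists 8 of 10 and 7 of 8, of which Tac1 and Pdyn are members of the first. The neuroblast list held Sox11 with 38.6, 86.3, 57.4 and 51.6 CPM and Dcx with 38.3, 45.3, 33.0 and 39.5 CPM, but Mki67, of dividing cells, had 3.42, 1.51, 6.01 and 5.54 CPM and Cdk1 no count.

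Of the non-neuronal cells, astrocyte genes were the highest. Their sum was 1021, 774, 776 and 565 CPM, highest in accumbens 1. Slc1a2, the glial glutamate transporter, had 657, 431, 441 and 225 CPM and followed the same order as the sum. Glul, glutamine synthetase, had 205, 204, 199.7 and 236 CPM. Slc1a2, Gfap and Aqp4, the defining astrocyte genes, differed widely in level. Gfap had 0.923, 0.0838, 1.58 and 4.76 CPM. Aldh1l1, another astrocyte gene, had 0.369, 0, 2.45 and 0.865 CPM. Aqp4, the astrocyte water channel, had 6.65, 2.43, 4.19 and 7.53 CPM. The oligodendrocyte list summed to 352, 187, 134 and 229 CPM; Mbp, a myelin protein, had 199.9, 120.4, 40.7 and 83.6 CPM and was highest in accumbens 1, and Mog had 4.89, 0, 0.0791 and 0 CPM. The microglia list summed to 17.8, 5.45, 12.7 and 5.02 CPM, and C1qa, Trem2 and Tyrobp had no count. Oligodendrocyte precursors (12.6, 9.97, 7.99 and 10.04 CPM) and ependymal cells (0.277, 0.168, 0.475 and 2.08 CPM) were low. The endothelial list summed to 141, 30.2, 48.7 and 359 CPM, and 9 of 9 detected members were highest in accumbens 4 and 8 lowest in accumbens 2, where all genes with a count gave 28.9% and 28.9%. Flt1, a VEGF receptor, had 46.3, 4.02, 6.80 and 91.5 CPM. Vwf, the von Willebrand factor, had 10.3, 0, 4.43 and 85.5 CPM. Cldn5, a tight junction protein, had 0.462, 0.0838, 0.158 and 3.03 CPM. The mural list summed to 25.02, 3.10, 16.1 and 67.2 CPM. The part of vascular and glial RNA in the other results was not tested.

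**Figure D4:**
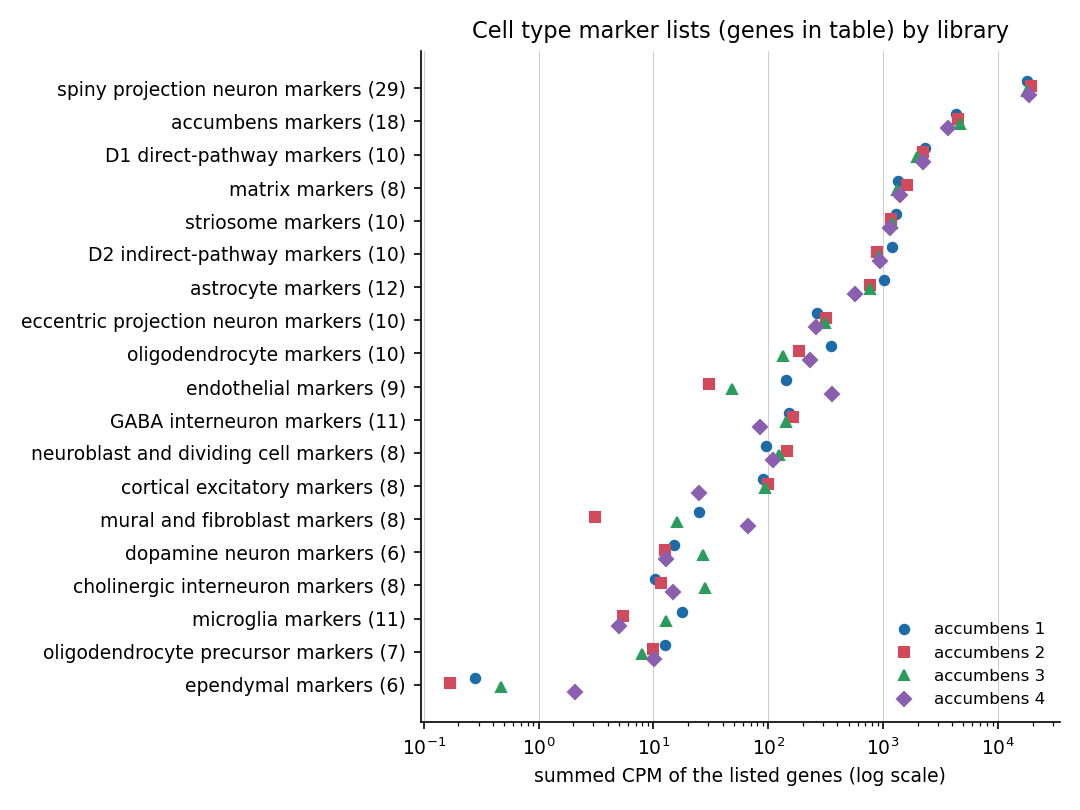
Summed CPM (log axis) of the listed markers of each cell type, each point 1 of the 4 accumbens libraries. Projection neuron lists are the highest, except the eccentric projection neuron list, which lies below the astrocyte list. The endothelial, mural and ependymal lists are spread widely between libraries, with accumbens 4 the highest and accumbens 2 the lowest.

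Spread between libraries was smaller for more abundant genes. Over genes averaging at least 10 CPM (8232 genes) the median CV was 20.4%, against 4.55% from counting error. By mean level it was 27.7% from 10 to 50 CPM, 17.7% from 50 to 100 CPM, 12.9% from 100 to 500 CPM, 9.96% from 500 to 1000 CPM and 7.96% above. The common biological coefficient of variation from edgeR was 28.6%. The 5 markers, between 5.56% and 19.8%, lay around the median of genes at their level: Dlk1 and Pdyn below it, and Tac1, Drd1 and Wfs1 above it.

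Spread differed between libraries as well. Of the 8232 genes, 16, 99, 59 and 43 were more than 2-fold above each other library in accumbens 1, 2, 3 and 4, and 20, 236, 78 and 53 were more than 2-fold below each other library. Accumbens 2 had the most on both counts. The genes low in it had a median of 14.8 CPM, against 43.6 CPM for all genes in the comparison, and at 50 CPM or more (3759 genes) there were 13 such genes in it, and accumbens 3 had the most genes set apart upwards (17).

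Most genes at 50 CPM or more with the widest spread were high in a single library. Kcns2, a modulatory potassium channel subunit, had 30.9, 45.4, 504 and 30.5 CPM. Polr2a, the large subunit of RNA polymerase II, had 106, 135, 845 and 146 CPM. Snx15, a sorting nexin, had 20.96, 22.1, 174 and 22.2 CPM. In these 3 genes accumbens 3 was the highest and the other libraries lay close together. Lamtor3, Cry1 and BC004004 also had their highest value there, at 149.9, 146 and 285 CPM. Taf9 had 27.0, 147, 22.9 and 32.9 CPM, with accumbens 2 high. Ptprb, a vascular phosphatase, had 37.9, 2.35, 41.2 and 193 CPM. Epas1, which encodes HIF-2 alpha, had 66.1, 4.78, 23.7 and 125 CPM. Both were highest in accumbens 4 and lowest in accumbens 2, as was the endothelial sum. At the other end Ik had 458, 455, 458 and 460.0 CPM and Ube2l3 86.6, 86.5, 87.7 and 86.1 CPM, with CVs of 0.441% and 0.816%, under the counting error of 1.37% and 3.14%. Homer1, Nckap1, Ttc3, Parp6, Bod1l, Ywhag, Ppm1b and Tiprl were the others of the 10 with the least spread, with CVs up to 1.71%.

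**Figure D5:**
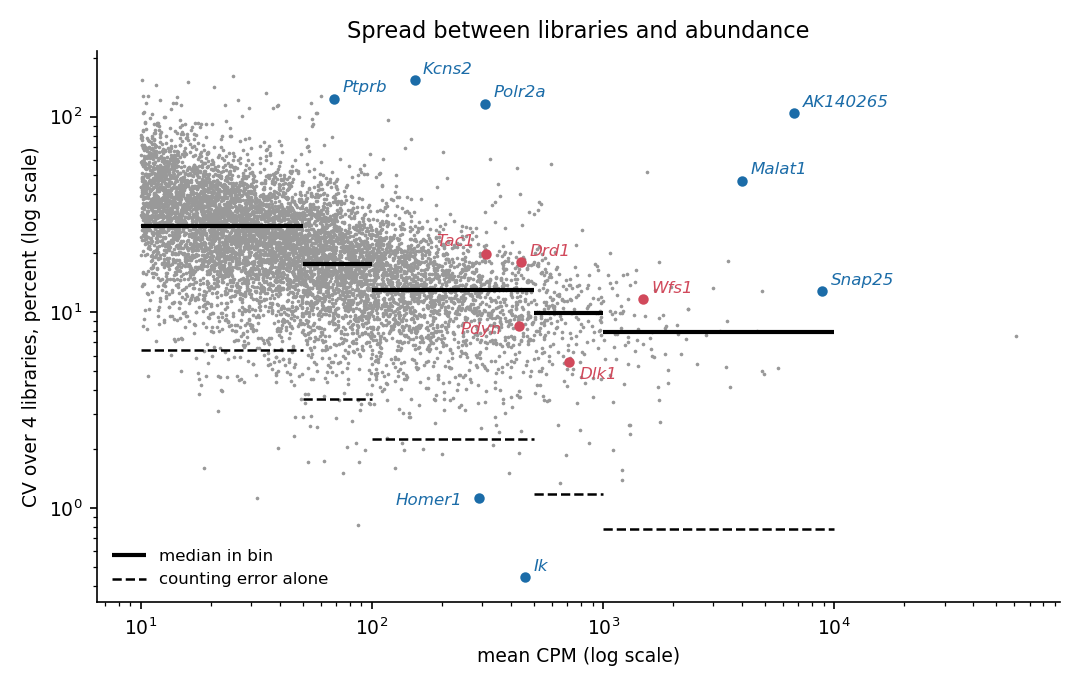
CV over the 4 accumbens libraries against mean CPM (both axes log) for 8232 genes averaging at least 10 CPM, with solid lines for the median in a bin, dashed lines for counting error and marked genes named. The bin medians fall from 27.7% to 7.96%, and Kcns2, Polr2a, Ptprb, AK140265 and Malat1 lie far above.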

How the data were processed

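Ribosome-bound RNA was sequenced in 4 accumbens libraries of the Drd1-TRAP line. The deposited tables hold read counts per gene; per the submitters' processing notes the reads were aligned with STAR 2.0.0e to mm10 and counted with HTSeq. The annotation, strand setting and filters are not given in the sources used here. Summary rows of the counter were left out; they held 35.5 to 40.6% of all counted reads, and reads with more than 1 place, a part of these, were 14.98 to 20.0% of all counted reads, so genes with near-identical copies are undercounted. Of 32531 genes, 23155 matched GENCODE M21 by symbol and 743 by synonym. Of 504 listed genes, 168 overlap exons of a neighbour, in 142 cases one transcribed from the other strand, and their reads may be shared or lost.

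CPM was computed on each library's gene total, and CPM per kb on union exon length; errors are SDs over 4 libraries, from which no tests were made since there is 1 group. The counting CV is that of Poisson counts and covers counting error only. Dispersion came from edgeR 4.0.16 in R 4.3.3, tested on simulated data, with DESeq2 1.42.0 size factors as an alternative; tables were handled with pandas 2.3.3. Between pairs of libraries, chi-square per degree of freedom was 31.7 to 44.2, so no pair differs by counting error alone. This cannot tell whether libraries came from the same mouse or pool. The members and gene lists were chosen with earlier results of these data known. Named are the markers and Rpl10a, the 20 highest genes on each scale, detected members of the lists of projection neurons and families, the 3 highest and defining members of the lists of other cells, the 10 genes of highest and of lowest CV from 50 CPM, and the 3 nearest to each marker. Some genes of these lists are not reported here. Promoter windows are from RefSeq (GRCm38.p6). The alternatives tried were other scalings, no Rn45s, thinning, other filters, the longest transcript and leaving out each replicate.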

Additional observations from a re-analysis of the deposited data

Results flagged for a closer look

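Of 283 reported values that have a figure for each of the 4 libraries, 38 had 1 library apart from the other 3, in that the gap between the highest or lowest library and its nearest neighbour, divided by the whole range, passed Dixon's limit for 4 samples at the 95% level. Chance flags about 1 in 20 such groups, and many genes were named for their spread, so a count of flags is no measure of the data. The number in brackets after each name is this gap over range. Values of the libraries, where not given here, stand with the genes above.

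In accumbens 1 the values of AK140265 (0.902) and of all unannotated names together (0.854) were high. The immediate early genes Egr2 (0.840) and Egr3 (0.907) were high there, as were Penk (0.861) and the sodium channel subunit Scn4b (0.938). The others high in accumbens 1 were Mog (0.984), Drd5 (0.886) and Drd4 (1), the last with 1 count in that library and none elsewhere. The share of zinc finger genes (0.865) was lowest there.

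In accumbens 2 the share of Drd1 among dopamine receptors (0.916) was high, at 86.3% against 74.9% to 75.9%, and so was that of Scn2b among sodium channels (0.882), at 38.4% against 32.1% to 32.9%. Also high there were Oprd1 (0.897), Col11a1 (0.919), Rxfp1 (0.862), Taf9 (0.920), Cnnm4 (0.951) and Zfp365 (0.841).

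Accumbens 3 stood apart in Kcns2 (0.968), Polr2a (0.945), Snx15 (0.992), Lamtor3 (0.973), Cry1 (0.902) and BC004004 (0.889), in each case as the highest. It was the highest by smaller differences in Gnao1 (0.888), Rasgrp2 (0.838) and Trp53 (0.845) and in the share of tubulin and microtubule genes (0.951), and the lowest in Htr1d (0.866), at 16.3 against 27.6 to 29.4 CPM.

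Accumbens 4 was the highest in the endothelial genes Vwf (0.879) and Cldn5 (0.872), in Fn1 (0.883), in Glul (0.853), in Chat (0.953) and in the summed ependymal markers (0.839). It was the lowest in the summed cortical excitatory markers (0.881), in Neurod6 (0.894) and in Kcnip3 (0.929), the last with 256, 254, 257 and 205 CPM.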

How the results depend on the processing

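No paired analysis was possible because the libraries form a single group and no groups were compared. Scaling the libraries with edgeR's TMM or with DESeq2's size factors moved each of 267 recomputed results by less than its spread or tolerance, and thinning all libraries to the smallest total did so for 37 of 37. Leaving Rn45s out of the total raised the protein-coding share to 96.9%, lowered the share of the 100 most counted genes to 19.9% and moved Dlk1 to 759 CPM; 65 of 289 results moved by more than their SD, by the change of total alone. The median CV was 29.3% over genes averaging at least 1 CPM and 14.4% over genes averaging at least 50 CPM, and the biological coefficient of variation 51.1% and 19.04%. Leaving out 1 replicate at a time gave a median CV of 17.3% to 20.2% and a biological coefficient of variation of 25.2% to 31.1%, lowest without accumbens 2 in both. A mean of 4 moves by at most 0.5 SD when 1 value is left out, so no level, share or sum could pass its SD this way, and the test says nothing of their stability. By ratio, 35 of 339 results moved by over 1.5 times, each without the library that holds its highest value. In CPM these became, without accumbens 1, AK140265 3235, Bcas1 2.46, Drd4 0, Drd5 0.0527, Egr2 26.1, Mobp 12.5, Mog 0.0264 and Tnnt1 1.197; without accumbens 2, Cnnm4 16.8, Col11a1 1.61, Mc4r 0.306, Oprd1 8.30, Rxfp1 0.145 and Taf9 27.6; without accumbens 3, Aldh1l1 0.412, BC004004 60.9, Cry1 27.3, Kcns2 35.6, Lamtor3 22.6, Npy 1.37, Polr2a 129, Pvalb 0.0288 and Snx15 21.8; and without accumbens 4, Chat 0.114, Cldn5 0.235, Epas1 31.5, Flt1 19.1, Fn1 12.05, Fos 6.50, Gfap 0.863, Ptprb 27.1, Vwf 4.92, endothelial sum 73.4, mural and fibroblast sum 14.7 and ependymal sum 0.306. With the length of the longest transcript, 24 of 44 shares and ranks moved, the rank of Drd1 to 267 among them. Detection at 3 or 10 counts in every library in place of 1 left 12014 and 10983 genes in place of 12806. Depth limits genes near 1 CPM; a gene without a count could still hold 3 counts per library.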

Other observations

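Genes that mark the compartments of the striatum were read in the accumbens libraries with no comparison. Among the listed matrix markers, Gda, guanine deaminase, had 380.3, 586, 484 and 528 CPM, and Sv2b, a synaptic vesicle protein, had 484, 447, 366 and 389.5 CPM. Epha4, an ephrin receptor, had 222, 306, 237 and 221 CPM, highest in accumbens 2. Calb1, the calcium buffer calbindin, had 96.7, 86.4, 70.3 and 97.5 CPM. Of the listed striosome markers beside Tac1, Pdyn, Nnat and Oprm1, Sema5b had 80.9, 63.0, 101 and 68.6 CPM and Kcnip1 35.3, 28.4, 44.1 and 51.9 CPM. Of the eccentric projection neuron list, Tshz1, a zinc finger factor, had 126, 99.0, 152 and 128 CPM and Otof, otoferlin, 42.7, 85.9, 61.6 and 53.2 CPM. The sum over a list does not give the number of cells of a compartment.

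The remaining classes of general cell biology held the following shares of gene counts. Zinc finger genes held 1.24% ± 0.0626 (SD, n = 4), genes of the ubiquitin pathway 1.24% ± 0.0457, and chaperones 1.11% ± 0.0286. Actin and its regulators held 1.01% ± 0.0353 and kinesins and dyneins 0.939% ± 0.0343. Sodium and calcium pumps held 0.861% ± 0.0821.

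Genes more than 2-fold higher in 1 library than in each other library, named here after their values were seen, included 2 of myelin in accumbens 1. Mobp, a myelin protein, had 55.9, 17.9, 7.1996 and 12.3 CPM and Bcas1, a gene of newly formed oligodendrocytes, 32.9, 0.503, 6.17 and 0.692 CPM. In accumbens 4, Fn1, fibronectin, had 19.3, 8.30, 8.54 and 103 CPM and Podxl, podocalyxin, 23.7, 18.1, 34.0 and 69.4 CPM. In accumbens 2, Cnnm4 had 15.8, 105, 19.5 and 15.1 CPM.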
